A study of Homo sapiens with 12 samples.

Results

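Cadherins and protocadherins were examined in a derivative of the human renal cancer cell line Caki-1 that had become resistant to cabozantinib, and in its parent. Cabozantinib is an inhibitor of receptor tyrosine kinases such as MET and VEGFR2. The cadherins and protocadherins were taken as every gene symbol made of CDH and a number or beginning with PCDH. This gave 88 of the 20114 symbols in the RNA tables, 23 of them cadherins and 65 protocadherins. The resistant line was selected in McCoy's medium, starting at 5 µM cabozantinib and reaching 20 µM over 2 months, and was then kept in 10 µM, while the parental line was grown in RPMI. Drug, medium and selection therefore cannot be told apart between the lines. No label says that the resistant line is 1 clone or a pool. Of 12 samples in the series, 4 were RNA libraries, 2 from each line. They held 14664712 and 12851392 estimated counts in the resistant line and 10605109 and 10584085 in the parental line. Whether replicates were separate cultures is not labelled, and p-values then measure only how far these libraries spread, which may be technical. In bulk RNA, fewer cells of a type and less RNA per cell cannot be told apart.

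The cadherins are calcium-dependent adhesion molecules that bind like molecules on the neighbouring cell. Classical cadherins hold epithelial or mesenchymal cells together at adherens junctions, where their cytoplasmic tails bind beta-catenin and p120-catenin and, through alpha-catenin, actin. Protocadherins share the extracellular repeats but not the catenin-binding tail. Many of them are encoded in the alpha, beta and gamma clusters, which are best known for giving neurons individual surface identities. In the kidney, N-cadherin (CDH2) and cadherin-6 (CDH6) are known from the proximal tubule, and E-cadherin (CDH1) and the kidney-specific cadherin CDH16 from more distal tubule epithelium.

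The libraries carried markers of renal epithelium, with exceptions. PAX8, KRT8, KRT18 and CDH16, the last being one of the genes described here, were at 1 TPM (a level per gene length, scaled to a fixed total per library) or more in all 4 libraries. PAX2 and LRP2 had 0 counts in all 4, and CA9 stood at 0.00 and 0.90 TPM in the resistant line and at 0.00 and 0.18 TPM in the parental line. Listed blood cell markers summed to at most 0.09 TPM in any library, and the endothelial markers VWF, KDR and CDH5 to at most 0.07 TPM. The 5 stromal markers summed to 8.02 and 8.92 TPM in the resistant line and to 21.8 and 21.5 TPM in the parental line. DCN made most of this difference, with 1.92 and 0.33 TPM in the resistant line and 9.23 and 10.98 TPM in the parental line, and was called lower (log2 fold change -4.24, edgeR adjusted p = 0.0127). COL1A1 had 1.32 and 4.23 TPM in the resistant line and 6.12 and 5.03 TPM in the parental line, without passing (-1.15, 0.114). Of the 5, COL1A1 and PDGFRB were at 1 TPM or more in all 4 libraries, and COL3A1 and PDGFRA were at or below 0.12 TPM in each. The 3 neural markers summed to 3.61 and 4.44 TPM in the resistant line and 4.81 and 4.36 TPM in the parental line. Among them SNAP25 had a log2 fold change of -1.09 and GFAP of 1.35, neither passing (edgeR adjusted p = 0.0981 and 0.225). The part of the stromal and neural markers in the differences below was not tested. The resistant replicates differed far more than the parental ones, with a mean chi-square per gene between the counts of a pair of 48.4 against 1.95, where sampling noise alone gives about 1.

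Both lines expressed a small set of cadherins, counting a gene as expressed at 1 TPM or more in both libraries of a line. The resistant line expressed 10 members and the parental line 13, and all 10 of the resistant line were among the 13. The shared ones were CDH2, CDH6, CDH13, CDH16, CDH17, CDH24, PCDH20, PCDHGB7, PCDHGC3 and PCDHGC5. PCDHGB2, PCDHGB4 and PCDHGB6 met the definition in the parental line alone. The edge was close for several members. PCDHGC5 stood at 1.00 and 1.13 TPM in the resistant line, just inside, and CDH1 stood just outside at 1.35 and 0.89 TPM in the resistant line and at 0.94 and 0.71 TPM in the parental line.

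PCDHGC3 led in both lines, while CDH13 was above CDH2 in both resistant libraries and below it in both parental ones. In the resistant line the order was PCDHGC3 (57.3 ± 17.2 TPM, SD, n = 2 throughout), CDH13 (24.8 ± 9.69), CDH2 (13.6 ± 5.06), CDH17 (11.2 ± 1.62), CDH16 (8.525 ± 1.25), CDH24 (8.34 ± 1.61), PCDHGB7 (3.59 ± 2.52), PCDH20 (2.865 ± 0.587) and CDH6 (1.56 ± 0.354). CDH2, CDH17, CDH16 and CDH24 were not separated in resistant replicate 2, where they lay between 10.1 and 9.41 TPM. In the parental line the order was PCDHGC3 (31.0 ± 0.686 TPM), CDH2 (26.6 ± 0.170), CDH13 (17.8 ± 0.290), CDH24 (7.32 ± 0.0283), PCDHGB7 (7.16 ± 1.13), CDH17 (6.56 ± 0.0566), CDH16 (2.93 ± 1.00), PCDHGB2 (2.31 ± 0.0990), PCDH20 (2.00 ± 0.453) and PCDHGB4 (1.975 ± 0.841). There CDH24 and CDH17 were apart, but PCDHGB7, whose libraries lay on either side of both, was separated from neither, and the last 4 were not separated beyond their spread. PCDHGC3 made up 41.7% and 38.7% of the summed TPM of all 88 members in the resistant line, against 25.0% and 25.7% in the parental line. CDH2 made up 10.3% and 8.57% in the resistant line, against 21.7% and 21.8% in the parental line. The sum itself was 167 and 117 TPM in the resistant line and 122 and 122 TPM in the parental line.

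**Figure D1:**
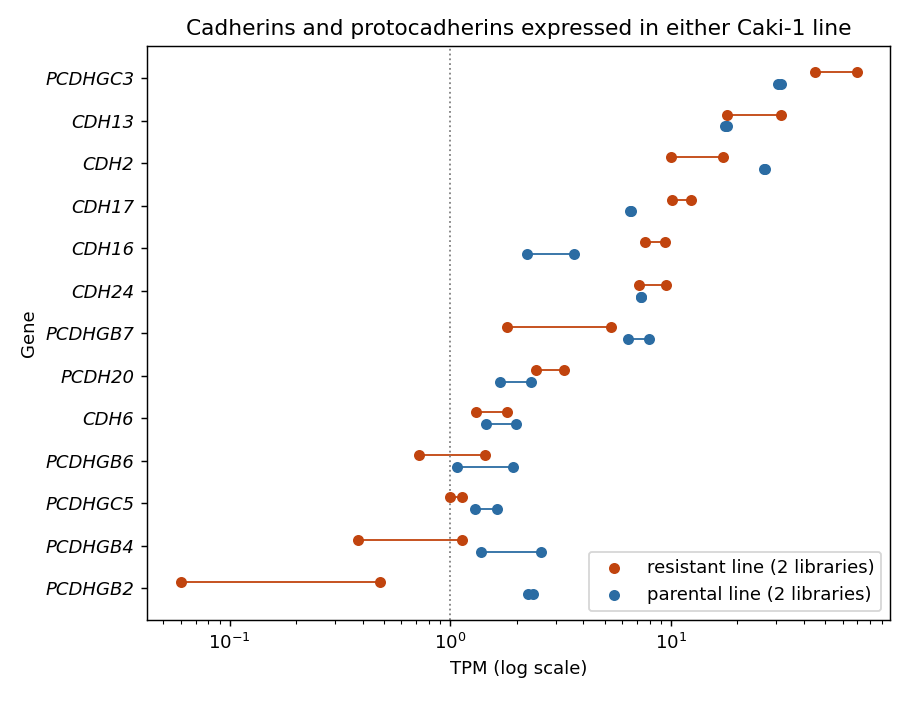
Level in TPM (log axis) of the 13 members expressed in either line, with a point for each library and a line joining the 2 libraries of a line. The dotted line marks 1 TPM. Both resistant libraries lay to the right of both parental ones for PCDHGC3, CDH16, CDH17 and PCDH20 and to the left for CDH2, PCDHGB7, PCDHGB4, PCDHGC5 and PCDHGB2.

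The remaining members were low. Of the 88, 27 had 10 or more counts in at least 2 libraries and were tested, 7 cadherins and 20 protocadherins. Of the 61 that were not tested, 20 had 0 counts in all 4 libraries and 41 had some, with at most 12.63 in any library. A count of 0 allows a level of up to 0.205 and 0.233 CPM (counts scaled to a fixed library total, here without TMM factors) in the resistant libraries and 0.283 and 0.283 in the parental ones, at 3 counts of the total and for counting error only. Just inside the limit for testing was PCDH10, with 13 and 10 counts in the resistant line and 5 and 7 in the parental line. Just outside was PCDHB16, with 1 and 2 counts in the resistant line and 9 and 10 in the parental line. Of the 27, 5 passed the limit through the parental libraries alone (PCDHB14, PCDHGA7, PCDHGA9, PCDHGB1 and PCDHGC4) and 1, PCDH10, through the resistant libraries alone.

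CDH16, CDH17 and PCDHGC3 rose in the resistant line and CDH2 fell, by the quasi-likelihood test of edgeR, Benjamini-Hochberg adjusted over all 12892 genes tested. The 3 rises are 11.1% of the 27 tested members, where 2.96% of all genes tested were called higher, and the 1 fall is 3.70%, where 3.44% were called lower. In both directions together 14.8% of the members and 6.4% of all genes were called. The other 23 tested members did not pass, and 12 members had an unadjusted p under 0.05, where 27% of all genes had. Of the 12, 3 were higher and 9 lower, beside 13.3% and 13.6% of all genes. Those 9 include the 5 members that passed the limit through the parental libraries alone, which fixed their direction. In normalised read count (CPM with TMM scaling), both resistant libraries lay above both parental ones for 7 members and below them for 13. That is 25.9% and 48.1% of those tested, against 30.7% and 29.8% of all genes. The 13 include the same 5 members, and the 7 include PCDH10, which reached the limit through the resistant libraries alone. Levels below are in CPM unless TPM is named.

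Other settings moved these counts, and so did leaving out a library. DESeq2's Wald test called 3 members higher and 5 lower, where it called 4.69% and 5.72% of all genes. Of the 5, PCDHGA7, PCDHGA9 and PCDHGB1 had passed the count limit through the parental libraries alone. Library totals as the scale gave 3 and 0 (4.13% and 2.91% of all genes), and genes with 10 or more counts in all 4 libraries gave 2 and 0 (2.45% and 2.7%). limma-trend gave 0 and 1 on log2(TPM + 1), where 2% and 2.32% of all genes were called, and 0 and 0 on log2(TPM + 0.1), where 1.78% and 2% were. The 1 called lower was PCDHGB2, which reached that setting's limit of 1 TPM through the parental libraries alone. At an adjusted p of 0.01, edgeR called 0 and 0 members (0.186% and 0.582% of all genes). Leaving out parental replicate 1 gave 0 higher and 1 lower (1.14% and 1.48% of all genes), and leaving out parental replicate 2 gave 1 of each (1.1% and 1.56%). Leaving out resistant replicate 1 gave 4 higher and 9 lower, but 28% and 28.4% of all genes were then called. Leaving out resistant replicate 2 gave 4 higher and 10 lower, beside 17.6% and 20.5% of all genes.

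**Figure D2:**
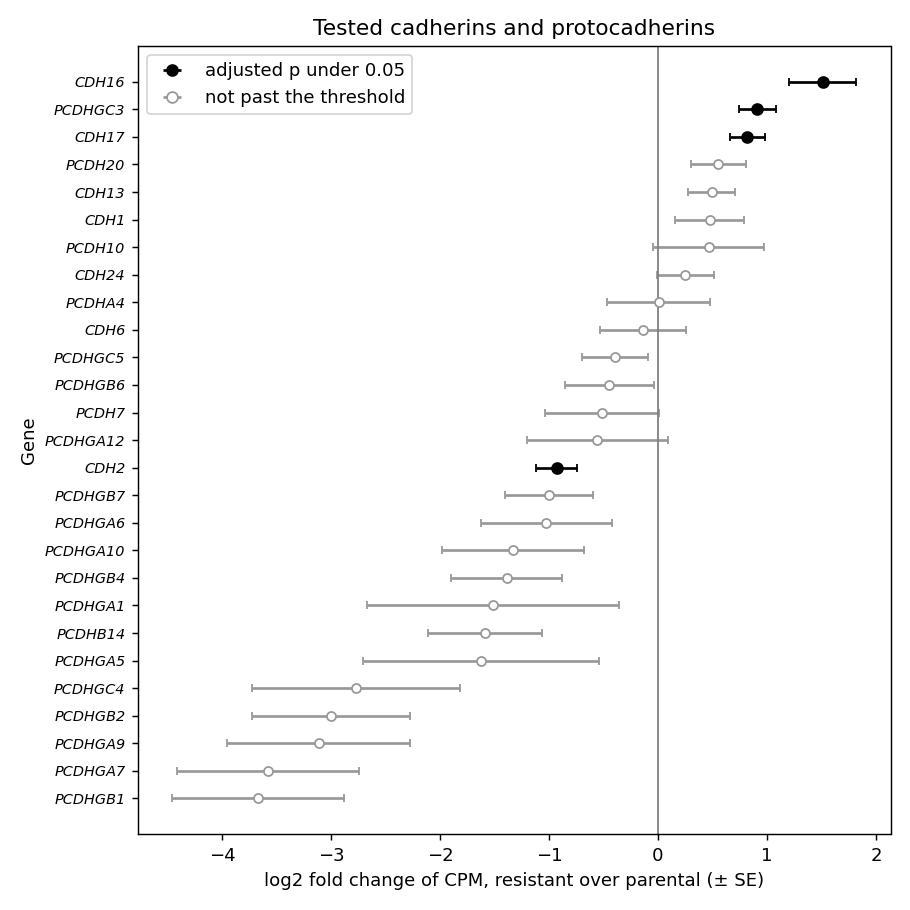
log2 fold change of CPM, resistant over parental, with its standard error, for the 27 tested members. Filled points passed an adjusted p of 0.05. CDH16, PCDHGC3 and CDH17 lay to the right of 0 and CDH2 to the left, and every tested PCDHG symbol but PCDHGC3 lay to the left. Of these PCDHG symbols, 4 reached the count limit through the parental libraries alone.

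Among the classical cadherins the called change was in N-cadherin, CDH2, a gene of chromosome 18 whose protein marks mesenchymal and proximal tubule cells. CDH2 had 744 and 459 counts in the resistant line and 810 and 830 in the parental line, which is 48.1 and 35.6 CPM in the resistant line against 79.0 and 80.5 CPM in the parental line. Both resistant libraries were below both parental ones, though they also differed from each other. The stromal markers with enough counts to test, DCN, COL1A1 and PDGFRB, had log2 fold changes of -4.24, -1.15 and -0.28, DCN alone passing. CDH2 fell by 0.93 ± 0.19 on the log2 scale (SE, edgeR adjusted p = 0.0445). Its adjusted p ranged from 8.42e-05 to 0.268 over the alternatives. It missed the threshold without parental replicate 1 (0.243) or 2 (0.268), with library totals as the scale (0.0642), with only genes of 10 or more counts in all 4 libraries (0.0506) and with limma-trend on TPM (0.109 and 0.118).

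E-cadherin, CDH1, the defining cadherin of epithelia, was a minor transcript in both lines. It had 72 and 48 counts in the resistant line and 35 and 27 in the parental line, or 4.65 and 3.72 CPM against 3.41 and 2.62 CPM. The pairs did not overlap, but the log2 fold change of 0.48 ± 0.31 did not pass (edgeR adjusted p = 0.377). In TPM, CDH2 exceeded CDH1 12.7 and 11.2 times in the resistant libraries and 28.2 and 37.6 times in the parental ones. The ratio was thus lower in both resistant libraries, and no test was run on it. P-cadherin, CDH3, of basal epithelia, had 3 and 2 counts in the resistant line and 0 and 0 in the parental line. R-cadherin, CDH4, had 1 and 3 counts in the resistant line and 0 and 0 in the parental line.

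Of 13 type II classical cadherins, which lack the HAV motif of type I, 2 were tested and 0 were called (0 also with DESeq2 and at an unadjusted p under 0.05), and 5 had 0 counts in every library. CDH24, which binds catenins like other classical cadherins, had 17.0 and 27.4 CPM in the resistant line and 18.5 and 18.6 CPM in the parental line. The pairs overlapped (log2 fold change 0.25 ± 0.26, edgeR adjusted p = 0.564). CDH24 passed as higher without resistant replicate 1 (0.57, adjusted p = 0.00553), and the sign turned to -0.13 without resistant replicate 2. CDH6, the proximal tubule cadherin, had 5.36 and 11.7 CPM in the resistant line and 10.3 and 8.34 CPM in the parental line. The resistant replicates lay on either side of the parental pair (log2 fold change -0.14 ± 0.39, edgeR adjusted p = 0.846). CDH6 passed as lower without resistant replicate 2 (-0.80, adjusted p = 0.0348), and its log2 fold change was 0.34 without resistant replicate 1, with adjusted p from 0.0348 to 0.996 over the alternatives. CDH11, the cadherin of mesenchymal and bone-forming cells, had 0 and 0 counts in the resistant line and 4 and 0 in the parental line. CDH5, VE-cadherin of endothelium, had 0 counts in all 4 libraries.

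CDH16 and CDH17, sister cadherins with more extracellular repeats and a shorter tail than the classical ones, both rose. CDH16, or Ksp-cadherin, is known from kidney tubule epithelium and lies on chromosome 16. It had 224 and 261 counts in the resistant line and 48 and 77 in the parental line, or 14.5 and 20.2 CPM against 4.68 and 7.47 CPM. All resistant values were above all parental ones, and the log2 fold change was 1.51 ± 0.31 (edgeR adjusted p = 0.0454). Over the alternatives the log2 fold change ran from 1.21 to 1.88 and the adjusted p from 2.17e-05 to 0.214. CDH16 missed the threshold without parental replicate 1 (0.214), with limma-voom (0.0526), with limma-trend on TPM (0.0654 and 0.0745) and with only genes of 10 or more counts in all 4 libraries (0.0503).

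CDH17, or LI-cadherin, known from liver and intestine, had 487 and 403 counts in the resistant line and 182 and 183 in the parental line. In CPM these were 31.5 and 31.3 in the resistant line and 17.7 and 17.8 in the parental line, so that replicates were closer than for any other called member. The log2 fold change was 0.82 ± 0.16 (edgeR adjusted p = 0.0400), and its p ranged from 0.00108 to 0.502. CDH17 missed the threshold without parental replicate 1 (0.493) or 2 (0.502), where 1 library stands for the parental line, and with limma-trend on TPM (0.152 and 0.149). T-cadherin, CDH13, which has no cytoplasmic tail and is held in the membrane by a lipid anchor, had 83.0 and 56.1 CPM in the resistant line and 49.5 and 49.4 CPM in the parental line. Both resistant values were higher, resistant replicate 1 the more so, and the log2 fold change of 0.49 ± 0.22 did not pass (edgeR adjusted p = 0.208). It passed without resistant replicate 2 (0.75, adjusted p = 0.000695), and its p ranged from 0.000695 to 0.796. In TPM its pairs touched, with 31.67 and 17.97 in the resistant line and 17.98 and 17.57 in the parental line. CDH13 stood at 1.85 and 1.80 times the TPM of CDH2 in the resistant libraries, against 0.679 and 0.657 times in the parental ones.

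The gamma protocadherins, a row of genes on chromosome 5, gave the highest level of any member. Each gamma symbol has its own first exon and promoter, and all are spliced to the same constant exons at the 3′ end. Reads from those exons cannot be placed by sequence, and 20 of the 21 PCDHG symbols had fractional estimated counts, so how the reads are divided among the symbols is uncertain. Promoters of the clusters are known to share a conserved element with CGCT at its core. RefSeq promoters of build GRCh38.p14, running from 250 bases before to 50 bases after the start, were at hand for 68 of the 88 members. They are shown for the 4 most abundant gamma symbols of the parental line, 1 of which rose while 3 had lower values, all on the plus strand. Capitals mark CGCTGT, letters chosen after the sequences had been read. PCDHGC3 is at chr5:141475716-141476015, PCDHGB7 at chr5:141417427-141417726, PCDHGB2 at chr5:141359886-141360185 and PCDHGB4, the first of its starts, at chr5:141387448-141387747.
PCDHGC3: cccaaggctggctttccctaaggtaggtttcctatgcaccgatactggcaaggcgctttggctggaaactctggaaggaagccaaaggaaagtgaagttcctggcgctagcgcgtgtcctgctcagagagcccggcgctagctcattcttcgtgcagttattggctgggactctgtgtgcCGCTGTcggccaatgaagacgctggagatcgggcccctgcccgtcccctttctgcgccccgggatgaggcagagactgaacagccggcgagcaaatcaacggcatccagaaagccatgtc
PCDHGB7: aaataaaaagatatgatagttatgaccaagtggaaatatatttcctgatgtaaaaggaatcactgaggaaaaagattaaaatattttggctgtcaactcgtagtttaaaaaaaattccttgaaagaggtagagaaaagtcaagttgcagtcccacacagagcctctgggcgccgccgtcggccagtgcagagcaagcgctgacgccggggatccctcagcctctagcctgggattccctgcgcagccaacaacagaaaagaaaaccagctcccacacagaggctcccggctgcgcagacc
PCDHGB2: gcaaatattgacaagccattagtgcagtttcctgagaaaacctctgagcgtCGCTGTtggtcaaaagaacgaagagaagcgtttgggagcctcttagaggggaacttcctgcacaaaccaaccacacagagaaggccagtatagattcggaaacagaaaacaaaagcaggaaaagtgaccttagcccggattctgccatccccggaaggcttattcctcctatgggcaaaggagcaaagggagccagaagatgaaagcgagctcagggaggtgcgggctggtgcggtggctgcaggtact
PCDHGB4: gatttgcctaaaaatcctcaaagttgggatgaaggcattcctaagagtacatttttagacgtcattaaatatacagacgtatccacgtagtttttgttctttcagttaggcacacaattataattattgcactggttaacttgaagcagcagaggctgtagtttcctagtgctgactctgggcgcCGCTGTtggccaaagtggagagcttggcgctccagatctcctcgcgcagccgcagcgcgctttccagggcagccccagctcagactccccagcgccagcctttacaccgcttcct

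The CGCTGT letters were in 3 of these 4 windows and in 16 of the 19 PCDHG promoters in the table, each time on the gene's strand. On either strand they were in 84.2% of the PCDHG promoters, 53.8% of 13 PCDHA promoters, 7.69% of 13 PCDHB promoters, 25.0% of 12 cadherin promoters and 11.3% of 27305 promoters of all genes. PCDHGC3, PCDHGB2 and PCDHGB4 held them, and PCDHGB7 did not hold them in its window. A match is a description of letters and not of binding.

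PCDHGC3, a C-type gamma protocadherin found in many tissues, had 3550 and 2338 estimated counts in the resistant line and 1094 and 1149 in the parental line. In CPM these were 229 and 181 in the resistant line against 107 and 111 in the parental line. Both resistant libraries were well above both parental ones. PCDHGC3 rose by a log2 fold change of 0.91 ± 0.17 (edgeR adjusted p = 0.0346, from 7.99e-05 to 0.378 over the alternatives). By TPM it ranked 1890 and 2545 among the 20114 symbols in the resistant libraries and 3730 and 3628 in the parental ones. It missed the threshold without parental replicate 1 (0.378) or 2 (0.302) and with limma-trend on TPM (0.102 and 0.110).

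The other gamma symbols had lower values in the resistant line, without passing. Beside PCDHGC3, 14 PCDHG symbols were tested, and 4 of these (PCDHGA7, PCDHGA9, PCDHGB1 and PCDHGC4) reached the count limit through the parental libraries alone, which fixed their direction. The other 10 had log2 fold changes from -2.998 to -0.39, all negative under each scaling as well, where 48.5% of all genes tested were negative and 51.5% positive. The 10 share exons with each other and with PCDHGC3 and are not independent. In 7 of the 10 both resistant libraries lay below both parental ones in CPM, as in 29.8% of all genes. None of the 10 passed with edgeR, 3 had an unadjusted p under 0.05, all lower, as did 13.6% of all genes, and 1, PCDHGB2, was called lower by DESeq2's Wald test, which called 5.72% of all genes lower. Without parental replicate 1 or parental replicate 2, 9 of the 10 PCDHG symbols still tested beside PCDHGC3 were negative.

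PCDHGB2, expressed in the parental line alone, had 2.86 and 24.13 estimated counts in the resistant line and 78.32 and 84.69 in the parental line, or 0.194 and 1.86 CPM against 7.60 and 8.25 CPM. The pairs lay far apart, yet the resistant replicates also differed, and the log2 fold change of -2.998 ± 0.72 did not pass (edgeR adjusted p = 0.0674). It passed with DESeq2's Wald test (adjusted p = 0.000124). With limma-trend on log2(TPM + 1) it also passed (adjusted p = 0.0417), but it reached that setting's limit of 1 TPM through the parental libraries alone, which fixed its direction. With each of the 4 libraries left out in turn its log2 fold change ran from -5.28 to -2.07. Without resistant replicate 2, the setting of -5.28, it again reached the count limit through the parental libraries alone. Its adjusted p ranged from 6.13e-11 to 0.079 over the alternatives. PCDHGB7, the second most abundant gamma symbol, had 17.2 and 7.06 CPM in the resistant line and 27.1 and 21.9 CPM in the parental line (log2 fold change -1.002 ± 0.40, edgeR adjusted p = 0.181). It passed without resistant replicate 1 (0.000473) or 2 (0.0468). PCDHGB4 had 3.62 and 1.47 CPM in the resistant line and 4.68 and 8.83 CPM in the parental line (log2 fold change -1.38 ± 0.51, edgeR adjusted p = 0.152), and passed without resistant replicate 1 (0.00992). PCDHGB6 and PCDHGC5 had log2 fold changes of -0.45 ± 0.41 and -0.39 ± 0.31 (edgeR adjusted p = 0.518 and 0.449).

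PCDHGB1, PCDHGA7 and PCDHGA9, named after their values were seen, were also called lower by DESeq2 but could be tested only because of their parental counts, so their values are a description. PCDHGB1 had 5.77 and 0 estimated counts in the resistant line and 27.33 and 29.59 in the parental line. PCDHGA9 had 8.57 and 0 in the resistant line and 32.16 and 25.27 in the parental line, and PCDHGA7 had 2.86 and 0 in the resistant line and 14.70 and 12.63 in the parental line. All 3 had some counts in resistant replicate 1 and 0 in resistant replicate 2. In all, 5 and 10 of the 21 PCDHG symbols had 0 counts in resistant replicates 1 and 2, against 1 and 1 in the parental libraries. PCDHGA1 and PCDHGA5 were at 0 in resistant replicate 1 and had 18.1 and 12.07 counts in resistant replicate 2, so the resistant replicates differed in which symbols were at 0. The resistant libraries held more counts in total, and the part of depth or of the division of shared reads in these zeros was not tested.

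Summed over the cluster, the gamma protocadherins stood at 264 and 205 CPM in the resistant line against 182 and 179 CPM in the parental line. Without PCDHGC3 the other 20 symbols summed to 35.1 and 23.4 CPM in the resistant line and 75.1 and 67.4 CPM in the parental line. PCDHGC3 took 86.8% (exact 95% Clopper-Pearson interval 85.7 to 87.8) and 88.6% (87.3 to 89.8) of the cluster's counts in the resistant libraries. In the parental libraries it took 58.7% (56.4 to 60.9) and 62.4% (60.2 to 64.6). The intervals of the lines do not overlap, but they cover counting error only and not the uncertain division of reads among the symbols. For PCDHGB7 the intervals of the resistant replicates did not overlap each other either (5.79% to 7.33% in replicate 1 and 2.78% to 4.22% in replicate 2). The shares and the sum without PCDHGC3 are descriptions without a test. With each cluster summed before the edgeR fit 2 members were called higher (CDH16 and CDH17) and 1 lower (CDH2), beside 2.96% and 3.46% of all genes. The sum of the gamma cluster was in that fit and did not pass.

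**Figure D3:**
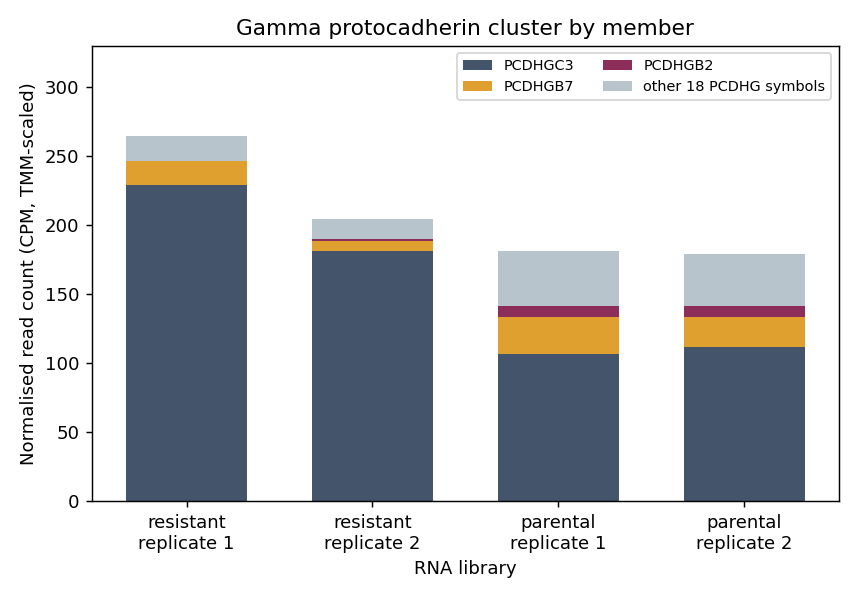
Normalised read count (CPM) of the gamma protocadherin cluster in each RNA library, stacked by PCDHGC3, PCDHGB7, PCDHGB2 and the other 18 symbols. PCDHGC3 filled 229 and 181 CPM of the resistant bars and 107 and 111 CPM of the parental bars, and the part above it was smaller in the resistant libraries.

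The alpha and beta clusters, neighbours of the gamma cluster, had few counts. The 15 PCDHA symbols summed to 26 and 34 counts in the resistant line and 24 and 35 in the parental line. Most of these came from PCDHA4, with 24.32 and 31.99 counts in the resistant line and 14.24 and 27 in the parental line (edgeR log2 fold change 0.0059 ± 0.47, adjusted p = 0.995). The 16 PCDHB symbols, which are genes without constant exons, summed to 21 and 22 counts in the resistant line and 33 and 40 in the parental line. PCDHB14 was the only one tested, at 7 and 7 counts in the resistant line and 10.83 and 20 in the parental line (log2 fold change -1.59 ± 0.53, edgeR adjusted p = 0.126).

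Outside the clusters 3 of 13 protocadherins were tested and 0 were called (0 also with DESeq2 and at an unadjusted p under 0.05). PCDH20, known mainly from the nervous system, was the most abundant, at 10.98 and 10.0 CPM in the resistant line and 5.95 and 8.34 CPM in the parental line. Both resistant values were higher, and the log2 fold change of 0.55 ± 0.26 did not pass (edgeR adjusted p = 0.226, from 0.0803 to 0.912 over the alternatives). PCDH7 and PCDH10 had at most 15 and 13 counts in any library and log2 fold changes of -0.51 ± 0.53 and 0.47 ± 0.51 (edgeR adjusted p = 0.567 and 0.592).

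Partner genes of the cadherins were followed in 7 lists. The genes called in them with edgeR all fell, where 3.44% of all genes were called lower and 2.96% higher. DESeq2 also called 1 list gene, TWIST1, higher. Shares of a list given below count calls in either direction, as does the 6.4% of all genes beside them. Of 15 tested catenins and linkers of the adherens junction 0 rose and 1, CTNNA2, fell, a share of 6.67% against 6.4% of all genes, and the median log2 fold change was -0.27 against 0.02 over all genes. In this list 8 had an unadjusted p under 0.05, as had 27% of all genes. Among the 8, CTNNBIP1 was higher (log2 fold change 0.53 ± 0.19, edgeR adjusted p = 0.148) and the rest lower. DESeq2 called 2 genes other than CTNNA2 lower, MLLT4 (afadin) and ACTN1 (an actin crosslinker), named after their values were seen. It called 5.72% of all genes lower, and edgeR did not call these 2 (adjusted p = 0.0674 and 0.0714). CTNNA2, the alpha-catenin of neurons, had 13 and 7 counts in the resistant line and 28 and 29 in the parental line (log2 fold change -1.97 ± 0.41, edgeR adjusted p = 0.0471), and was named after its value was seen, being below the list's limit on abundance. Its call ended without parental replicate 1 (0.0909) or 2 (0.107), with DESeq2 (0.0559) and with library totals (0.0526), among others. CTNNA1, the epithelial alpha-catenin, stood at 587 ± 26.3 CPM in the resistant line and 669 ± 13.6 in the parental line, and the actin crosslinker ACTN4 at 680.0 ± 6.54 and 817 ± 22.4 CPM in the resistant and the parental line, neither passing (edgeR adjusted p = 0.429 and 0.279). Of 5 tested nectins and nectin-like molecules, adhesion molecules of the same junction, 0 were called with edgeR. In this list 1 had an unadjusted p under 0.05 and 1, PVRL2, passed as lower with DESeq2 (0.00533), beside 27% and 5.72% of all genes. PVRL2 (nectin-2) stood at 93.8 ± 25.6 CPM in the resistant line and 171 ± 6.51 in the parental line (log2 fold change -0.87 ± 0.21, edgeR adjusted p = 0.0677). The poliovirus receptor PVR stood at 111 ± 19.6 CPM in the resistant line and 142 ± 10.6 in the parental line.

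Among 13 tested cadherin-superfamily genes with other names, 2 fell and 0 rose, a share of 15.4% against 6.4% of all genes. The median log2 fold change was -0.38 against 0.02 over all genes. CLSTN2, a calsyntenin with cadherin repeats known from synapses, had 24.5 and 34.1 CPM in the resistant line and 471 and 458 CPM in the parental line. It fell by 3.99 ± 0.21 on the log2 scale (edgeR adjusted p = 0.0019) and passed under all 15 alternatives. CDHR1, a photoreceptor cadherin, had 46.4 and 23.4 CPM in the resistant line and 144 and 140 CPM in the parental line, and fell by 2.02 ± 0.32 (edgeR adjusted p = 0.0239).

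Of 17 tested genes of cadherin cleavage and turnover 1 fell and 0 rose (5.88% against 6.4% of all genes, median -0.11). It was NUMBL, an endocytic adaptor, at 25.8 and 26.6 CPM in the resistant line and 41.5 and 46.1 CPM in the parental line (log2 fold change -0.74 ± 0.16, edgeR adjusted p = 0.0497), a call that 9 of 15 alternatives ended, among them leaving out parental replicate 1 (0.411) or 2 (0.598). Of 15 tested signalling partners of protocadherins 2 fell and 0 rose (13.3% against 6.4% of all genes, median -0.29). The kinase FYN had 7.88 and 5.90 CPM in the resistant line and 19.4 and 15.8 CPM in the parental line (log2 fold change -1.35 ± 0.24, edgeR adjusted p = 0.0339), and missed the threshold without parental replicate 1 (0.181). The receptor RYK had 63.4 and 54.4 CPM in the resistant line and 98.9 and 98.4 CPM in the parental line (log2 fold change -0.74 ± 0.15, edgeR adjusted p = 0.0454), and missed it in 7 of 15 alternatives. Among these were leaving out parental replicate 1 (0.474) or 2 (0.465), library totals (0.0665), 10 or more counts in all 4 libraries (0.0507) and limma-trend on TPM (0.0753 and 0.0828).

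Among 13 tested transcription factors known to bind classical cadherin promoters and 14 genes of promoter choice in the protocadherin clusters 0 were called with edgeR. In these lists 4 and 3 had an unadjusted p under 0.05, beside 27% of all genes (medians 0.07 and -0.13). DESeq2 called 1, TWIST1, higher in the first list, where it called 4.69% of all genes higher, and 0 genes in the second. TWIST1, known as a repressor of CDH1 and named after its values were seen, had 21.9 and 29.2 CPM in the resistant line and 14.4 and 11.3 CPM in the parental line (log2 fold change 0.99, edgeR adjusted p = 0.0627). In the same list ZEB1 and ZEB2 had log2 fold changes of -0.83 and -0.45 (edgeR adjusted p = 0.130 and 0.392). SNAI1 and SNAI2 had 0.48 and 0.36 (edgeR adjusted p = 0.253 and 0.557). The renal factor PAX8 stood at 389 ± 52.8 CPM in the resistant line and 565 ± 10.5 in the parental line (log2 fold change -0.54 ± 0.16, edgeR adjusted p = 0.102), and the epithelial factor ELF3 at 176 ± 36.4 CPM in the resistant line and 167 ± 3.54 in the parental line. GRHL3, an epithelial factor singled out after its values were seen, had 11 and 11 counts in the resistant line and 0 and 0 in the parental line. It reached the count limit through the resistant libraries alone, which fixed its direction, and did not pass (edgeR adjusted p = 0.0574). Its values are a description. The cohesin subunit RAD21 stood at 146 ± 35.7 CPM in the resistant line and 148 ± 6.43 in the parental line.

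**Figure D4:**
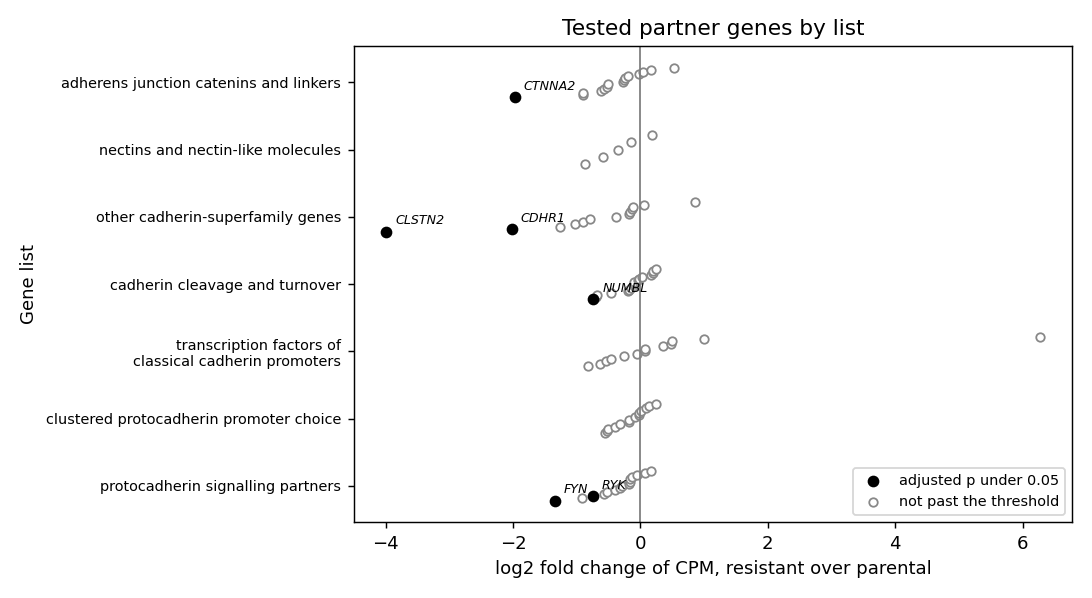
log2 fold change of CPM, resistant over parental, of the tested genes of 7 partner lists, with a point for each gene and filled points past an adjusted p of 0.05. The filled points, CTNNA2, CLSTN2, CDHR1, NUMBL, FYN and RYK, all lay left of 0, and the open point at the far right is GRHL3, whose fitted value rests on 0 parental counts.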

How the data were processed

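RNA of 4 libraries was analysed, grouped by their titles. Per the submitters' processing notes, the tools were STAR, RSEM and DESeq2 1.40.2, and GRCh38 and hg19 are named as builds, with no roles given. The deposited tables give RSEM estimated counts, 3.16% of them fractional, and TPM, both as the authors made them. Strand use is not given in the sources used here, so reads of overlapping antisense genes cannot be told apart. Estimated counts were rounded to whole numbers. Genes with 10 or more counts in at least 2 libraries (12892) were scaled by TMM and tested with edgeR 4.0.16 (R 4.3.3; limma 3.58.1, DESeq2 1.42.0), line as the only term, Benjamini-Hochberg adjusted over all of them at 0.05. CPM is the count scaled by TMM library size. Fold changes are resistant over parental.

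The test called 382 genes higher and 443 lower; with library totals in place of TMM the split was 532 and 375, that is 58.7% instead of 46.3% of the calls higher. The same steps were tested on simulated data. The replicate numbers are not stated to pair the libraries.

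Members follow a symbol rule, and members and lists were chosen with earlier results of these data known. Named were members called, expressed at 1 TPM or more in both libraries of a line, or known from kidney, epithelium, mesenchyme or endothelium, and per partner list up to 2 rises and 2 falls whose mean log2 CPM reached 2, otherwise the 2 most abundant. Some genes that this rule or the marker lists take in are not reported here. Not analysed here were PECAM1 and the 4 input libraries. The deposited H3K27ac peak lists hold a position and a score per peak as the authors gave it, with no unit named. Their peaks end at up to 249240417 on chromosome 1, beyond GRCh38, and the gene tables used here are GRCh38.p14, so peaks at member promoters were not analysed. Alternatives were other scalings, filters, tests, TPM with limma, a replicate block, a threshold of 0.01, summed clusters and leaving out each library. Figures were drawn with matplotlib 3.10.9.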

Additional observations from a re-analysis of the deposited data

How the results depend on the processing

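Counts of members called higher, 3 in the main test, were 0 with limma-trend at either TPM pseudocount (1 or 0.1) and at a threshold of 0.01, and 0 to 4 when a library was left out. Members called lower, 1 in the main test, were 0 with library totals, with 10 or more counts in all 4 libraries, with log2(TPM + 0.1) and at 0.01, 5 with DESeq2's Wald test, and 1 to 10 when a library was left out. Over all genes, 382 higher and 443 lower became 605 and 738 with DESeq2, 243 and 282 with log2(TPM + 1), 217 and 243 with log2(TPM + 0.1), 24 and 75 at 0.01, and 140 to 3520 and 189 to 3573 when a library was left out, where the spread of the remaining single library is taken from the other line. With the replicate number as a block, 858 genes were higher and 1026 lower, and 3 members higher and 8 lower. Same-numbered libraries did not deviate together (correlation -0.0449). The parental pair differed little beyond sampling noise (mean chi-square per gene 1.95), so this correlation cannot show whether same-numbered libraries share a culture or batch.

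Members expressed numbered 17 in the resistant line and 24 in the parental line by 10 or more counts in both libraries, against 10 and 13, and 8 in the parental line at 2 TPM. They numbered 10 to 13 and 13 to 15 with 1 replicate of a line alone. Of 281 alternative values of 21 named members, 224 kept direction and side of the threshold, 23 lost the call, 27 gained one and 7 turned sign. With a library left out, CDH24 ran from -0.13 (without resistant replicate 2) to 0.57, CDH6 from -0.80 to 0.34 (positive without resistant replicate 1, and 0.02 without parental replicate 1), PCDHGB6 from -0.85 to 0.014 (without parental replicate 1), ELF3 from -0.15 (without resistant replicate 2) to 0.29, and RAD21 from -0.28 to 0.21 (without resistant replicate 2; 0.017 without parental replicate 2). PCDHA4, at 0.0059, ran from -0.39 (without parental replicate 1; -0.36 without resistant replicate 2) to 0.55, and was -0.0046 with genes of at least 1 count. RAD21 was at 0.068 with library totals. CTNNA1, ACTN4 and PAX8 passed without resistant replicate 1 and without resistant replicate 2, PAX8 also with limma-trend, PVR without resistant replicate 2 and ELF3 without resistant replicate 1. The cause was not tested. Other settings for H3K27ac peaks at promoters were not run, for want of gene positions on their build. The 61 untested members had at most 12.63 counts in any library, and 20 of them had 0 in all 4. The part of depth in this was not tested.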
